A study of Lactuca sativa with 18 samples.

Results

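The 100 genes described here were chosen because their RNA was higher on day 3 than on day 0 of cold storage in cut midribs of Tall Guzmaine (TG) and Clemente (CL), and changed little over the same days in Parris Island Cos (PC). TG is a romaine lettuce (Lactuca sativa) cultivar with a high degree of browning, PC is one with a low degree, and CL is a line of medium browning selected from a cross of these parents. Counts were summed per GeneID in the 12 libraries of day 0 and day 3, and L, the level on the log2(CPM + 1) scale, was taken with CPM (counts scaled to a common library total) on the library total. GeneIDs were kept where the mean L in PC changed by less than 0.5 between the days, which left 34679 of 46150. Of those kept, 15806 had a count in any of the 12 libraries. The score was the smaller of the gaps in TG and CL between the lowest day 3 library and the highest day 0 library. The 100 GeneIDs of highest score are the members.

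Enzymatic browning of cut lettuce is the discoloration that follows when damage brings phenolic compounds together with the enzymes that oxidise them, chiefly polyphenol oxidase and peroxidase. Wounding of lettuce midribs is also known to raise the synthesis of new phenolic compounds through phenylalanine ammonia-lyase, the entry enzyme of the phenylpropanoid pathway. The reference table used here pairs GeneIDs with locus symbols and gene types and gives no functions. The members are therefore named by symbol only, and the pathway and marker lists drawn up for this tissue, its midrib identity included, were not analysed here.

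In the study, midribs of all 3 cultivars had been cooled, trucked and held cold as whole heads before they were cut by hand, and the pieces were then kept in the cold and frozen. All groups share the cutting and the cold, so day 0 is not an uncut state, and effects of cutting and storage cannot be told apart. The groups are TG, PC and CL, each on day 0 and on day 3, with 2 libraries per group. Nothing in the labels tells if replicate libraries were made from different heads, so the p-values reflect only how far these libraries differ, and some of that may be technical. Library totals ran from 35603537 to 59153901 counts, and the correlation between the replicates of a group on the log2 CPM scale was 0.961 to 0.979 across genes. In whole tissue, fewer cells of a type and less RNA per cell cannot be told apart.

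The gap that chose the members was 3.07 on the log2(CPM + 1) scale for the first and 1.01 for the last, with a median of 1.20. These values, and the changes from day 0 to day 3 within a cultivar, are descriptions of the choice and carry no test. LOC111901154 had the highest score. In TG it stood at 0.490 and 0.219 CPM on day 0 and at 16.9 and 12.6 CPM on day 3, and in CL at 0.603 and 0.365 CPM on day 0 and at 14.1 and 12.5 CPM on day 3. In PC it stood at 11.2 and 27.5 CPM on day 0 and at 15.8 and 15.1 CPM on day 3. All 4 PC libraries thus lay near or above the stored level of the browning cultivars, and the wider pair of PC libraries was the fresh one.

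LOC111909583 came second in score. It was at 6.685 and 4.899 CPM in fresh TG and at 9.919 and 6.655 CPM in fresh CL, against 56.9 and 44.6 CPM in stored TG and 50.5 and 46.4 CPM in stored CL. Its PC libraries were at 47.6 and 56.1 CPM on day 0 and 58.1 and 45.8 CPM on day 3. The day 3 libraries of all cultivars and the day 0 libraries of PC occupied the same range, apart from fresh TG and CL. LOC111888326 showed the same arrangement with little spread, at 17.9 and 18.2 CPM in fresh TG, 10.7 and 19.4 CPM in fresh CL, and between 68.8 and 85.0 CPM in all other libraries.

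**Figure D1:**
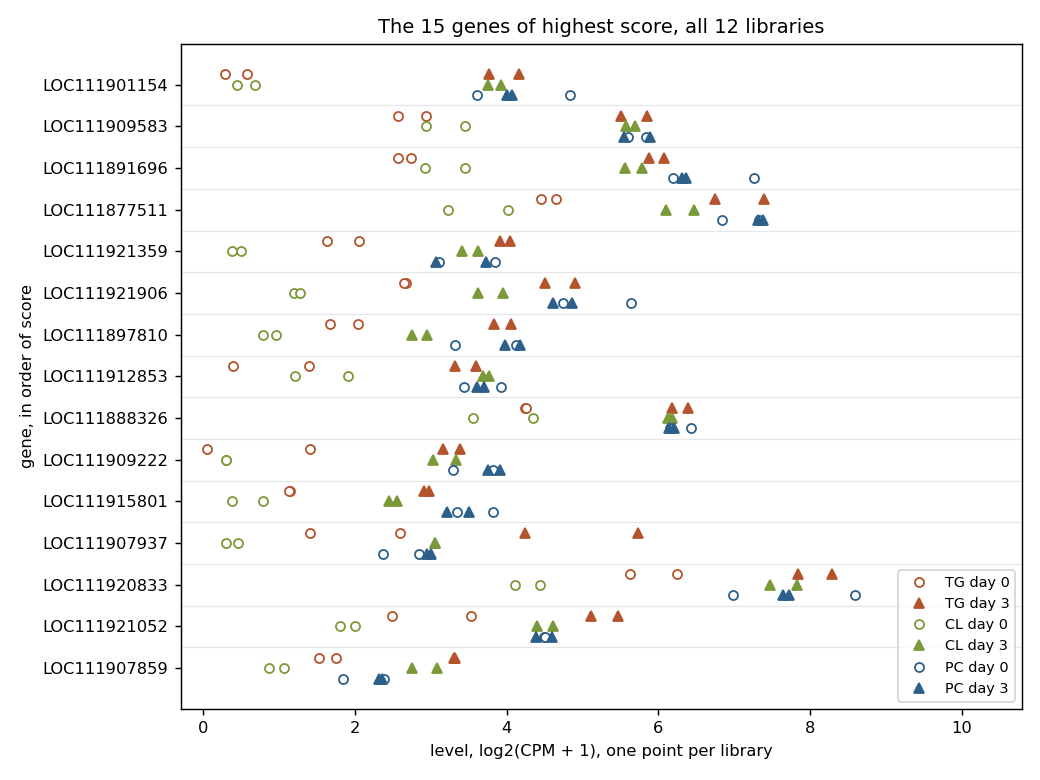
Level of the 15 genes of highest score on the log2(CPM + 1) scale, with 1 point per library, colour for cultivar, open circles for day 0 and filled triangles for day 3. For LOC111901154 and LOC111909583 the fresh TG and CL libraries stand alone at the low end, and PC on both days lies with stored TG and CL.

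Over all members, the mean L rose from day 0 to day 3 by a median of 1.54 in TG and 1.91 in CL, while the median change in PC was 0.07, between -0.49 and 0.48. Among the 94 members with at least 20 counts over the day 0 libraries of both TG and CL, the ratio of mean CPM on day 3 to day 0 had a median of 3.44 in TG, from 2.15 to 41.7, and of 5.41 in CL, from 2.31 to 35.7. The change of mean L was larger in CL than in TG for 79 of the 100, and for 62.2% of all tested genes. This count moves with the scaling. Fresh CL libraries had TMM factors, which rescale the library totals, of 0.780 and 0.794, against 0.977 to 1.17 in all other libraries. On the total scale the median tested gene also rose by 0.20 in CL and by 0.06 in TG. With TMM-scaled totals these medians were 0.03 and 0.01, the members' median changes 1.70 in CL and 1.47 in TG, and 67 members and 50.6% of tested genes had the larger change in CL.

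At the other end of the list, LOC111900642, the last member, stood at 13.9 and 19.4 CPM in fresh TG, 40.1 and 49.2 CPM in stored TG, and between 46.3 and 59.0 CPM in PC. The members ranked 96 to 100 (LOC111897710, LOC111887879, LOC111888809, LOC111909441 and LOC111900642) had scores of 1.016 to 1.009. The next 5 genes (LOC111896559, LOC111913978, LOC111889937, LOC111881776 and LOC111884937) had scores of 1.004 to 0.996, so the limit falls in a continuous run of values. Of 46150 GeneIDs, 954 had a score at least as high as the last member before PC was considered. PC rose by 0.5 or more in 819 of them, fell by 0.5 or more in 35, and changed by less in the 100 members, which are 0.217% of all GeneIDs.

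The rule fixed that PC was flat, but not the level at which it was flat. That level, the mean of PC over both days, was set on a scale of L. On it, 0 is the mean day 0 level of TG and CL and 1 is their mean day 3 level. Both ends are levels that entered the score, so the place is not free of the rule and is given as a description. The median place of PC was 1.05, with the middle of the list close to the stored level of the browning cultivars. PC lay above 0.75 for 88 members, above 1 for 62 of these, and below 0.25 for 2. Thus for most members the PC level over both days was near or above the level to which TG and CL rose. The place of fresh PC alone was not counted. The place was 0.981 with TMM-scaled totals and between 0.995 and 1.12 without any 1 library, the lowest value being without PC day 0 replicate 2. The 2475 other tested genes that were flat in PC with a score above 0 had a median place of 1.08, and 77.1% of them lay above 0.75, so this place is not particular to the 100.

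**Figure D2:**
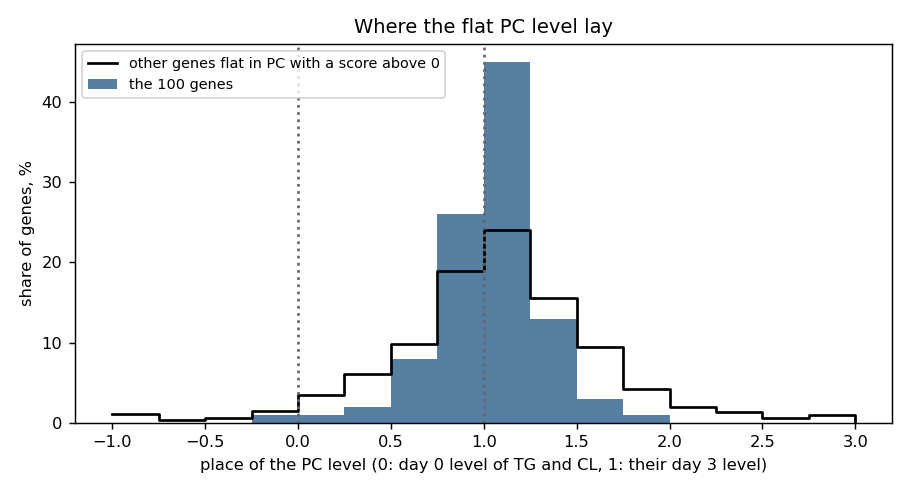
Share of genes by the place of the flat PC level, in steps of 0.25 on a scale from the day 0 level (0) to the day 3 level (1) of TG and CL, with values beyond either end counted in the end steps. Bars are the 100 genes and the line is the 2475 other genes flat in PC with a score above 0; both peak in the step that starts at 1, which holds 45 of the 100.

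The libraries of each day were also compared one by one. On day 0, both TG libraries lay below both PC libraries for 94 members, where 39.7% of all tested genes did so, and above them for 1, against 25.7%. Both CL libraries lay below both of PC for 98, against 52.5% of tested genes, and above for 1, against 22.7%. Because the rule asks for a rise in TG and CL and none in PC, these counts are tied to the choice and nothing is read from them. On day 3, TG lay above PC without overlap for 36 members and below it for 28, where the shares of tested genes were 18.8% and 28.2%. CL lay above PC for 15 members and below it for 57, with 17.3% and 37.3% of tested genes. The day 3 levels of TG and CL also entered the score, so these counts too are given as a description. The median difference of TG from PC in L was -1.37 on day 0 and -0.02 on day 3, and that of CL from PC was -2.20 and -0.24. Over all tested genes the medians were -0.12 and -0.04 for TG, and -0.31 and -0.10 for CL, on the same scale. With TMM-scaled totals the members' differences were -1.19 and 0.04 for TG and -1.79 and -0.11 for CL, so the sign of the small day 3 difference of TG depends on the scaling, and 23 members in place of 15 had CL above PC on day 3.

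**Figure D3:**
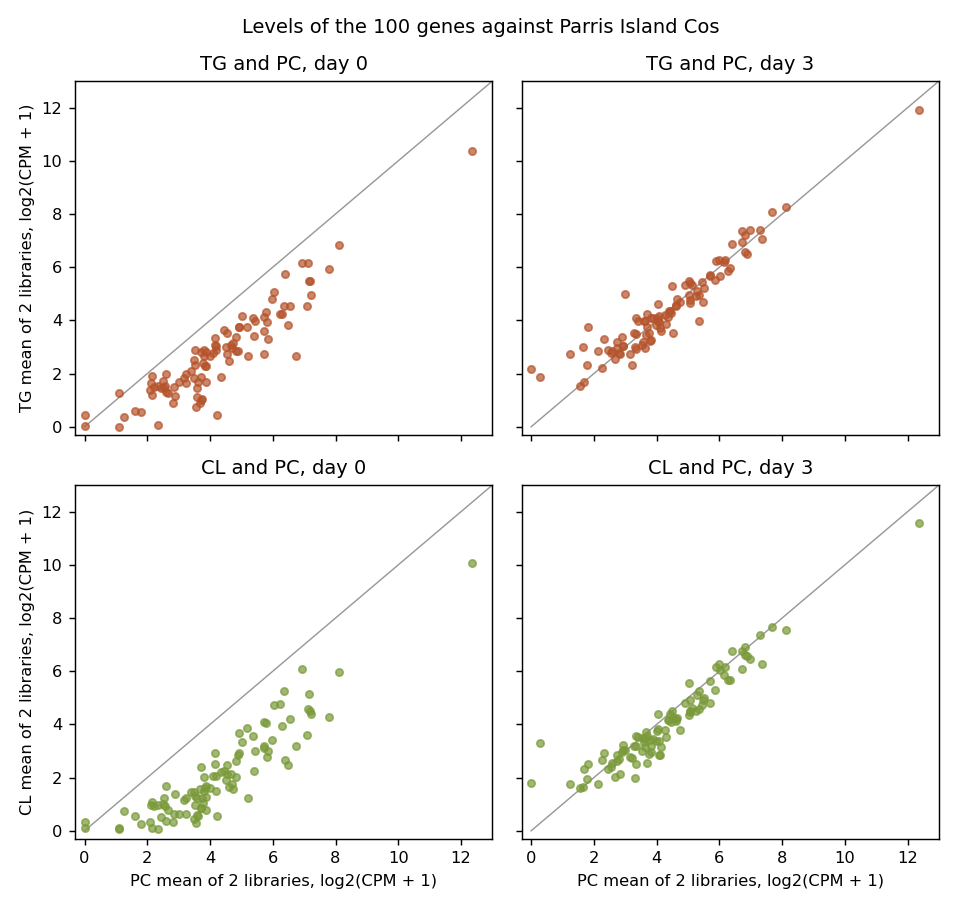
Mean level of the 100 genes in TG (upper panels) and CL (lower panels) against PC on day 0 (left) and day 3 (right), on the log2(CPM + 1) scale, with the line of equal levels. On day 0 nearly all points lie below the line, and on day 3 they lie about it, with medians of -0.02 for TG and -0.24 for CL.

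The members with the highest levels followed the common arrangement. LOC111912961 was the most abundant by far, at 1386 and 1249 CPM in fresh TG and 4147 and 3626 CPM in stored TG. In CL it was at 1061 and 1065 CPM fresh and 3167 and 2892 CPM stored, and in PC at 4395 and 6208 CPM fresh and 4847 and 5712 CPM stored. PC exceeded stored TG and CL for this gene in every library. LOC111917240, LOC111920833, LOC111904010 and LOC111889738 followed, with mean day 3 levels in TG of 310 CPM, 269 CPM, 167 CPM and 170 CPM. LOC111917240 overlapped between stored TG, at 290 and 329 CPM, and the PC libraries, at 220 to 349 CPM. In LOC111889738 stored TG, at 156 and 183 CPM, was above stored PC, at 118 and 134 CPM, and stored CL, at 77.8 and 95.9 CPM, was below it.

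PC lay below 0.5 on the scale of place for 4 members. In GeneID_111891094, which the reference table does not list, all 4 PC libraries had 0 counts. TG had 0.471 and 0.241 CPM on day 0 and 3.69 and 3.37 CPM on day 3, and CL had 0.0943 and 0.410 CPM on day 0 and 1.91 and 3.19 CPM on day 3. Against a floor of 3 counts per library, stored TG was at least 51.4-fold and stored CL at least 37.1-fold higher than stored PC. LOC111892296 was nearly as low in PC, with 0 counts on day 0 and 8 and 10 counts on day 3. It stood at 8.49 and 9.12 CPM in stored CL and at 1.71 and 3.99 CPM in stored TG, after 0 and 8 counts in fresh CL and 2 and 0 counts in fresh TG. Both genes are flat in PC in the sense that they were at or near no counts. Floors cover counting error only, and they take each count as independent.

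In LOC111883028 and LOC111898851 PC was flat at a low but measured level. LOC111883028 was between 0.829 and 1.56 CPM in PC, at 0.960 and 2.01 CPM in fresh TG and at 5.62 and 5.56 CPM in stored TG. CL held 4 and 2 counts of it on day 0 and reached 2.30 and 2.43 CPM on day 3. LOC111898851 was between 1.82 and 4.83 CPM in PC, at 11.6 and 13.5 CPM in stored TG and at 5.12 and 4.39 CPM in stored CL. Stored TG was above every PC library for both genes. For LOC111907937, at rank 12, stored TG was also far above PC, at 52.1 and 18.0 CPM against 4.15 to 7.03 CPM. Its stored TG libraries differed widely from each other, while stored CL, at 7.34 and 7.27 CPM, was close to the PC level.

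PC lay above the stored level of TG and CL for another group. LOC111889841 had the highest place, 1.76. It was at 22.6 and 23.6 CPM in fresh PC and 13.9 and 20.1 CPM in stored PC, whereas stored TG was at 11.0 and 11.2 CPM and stored CL at 6.93 and 8.95 CPM. LOC111893342 and LOC111907350 had a place of 1.59 each. LOC111893342 ranged from 24.73 to 44.0 CPM in PC against at most 15.1 CPM in stored TG and 24.65 CPM in stored CL. For all 3 genes every PC library was above every TG and CL library.

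Flat refers to the means in PC, and its fresh libraries were not alike. The gap between the PC replicates in L had a median of 0.51 on day 0 and 0.17 on day 3 over the members, where it was 0.27 and 0.19 over all tested genes. PC day 0 replicate 2 was above replicate 1 for 88 of the 100 members, against 50.7% of tested genes and 64.4% of the 2475 other genes that were flat in PC with a score above 0. The rule used the mean of these libraries and not their difference. A high replicate raises that mean and can let a gene pass as flat, so the count of 88 is not free of the choice. The part of this shift in the levels of PC on day 0 was not tested. LOC111920833 is an example, with 125 and 385 CPM in fresh PC and 199 and 210 CPM in stored PC. LOC111876371 had the widest range in PC, at 1.76 and 8.40 CPM on day 0 and 5.88 and 4.92 CPM on day 3, a span of 1.77 in L. No member spanned more than 2. Without PC day 0 replicate 1 the rule returned 73 of the 100 members, and without replicate 2 it returned 69.

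**Figure D4:**
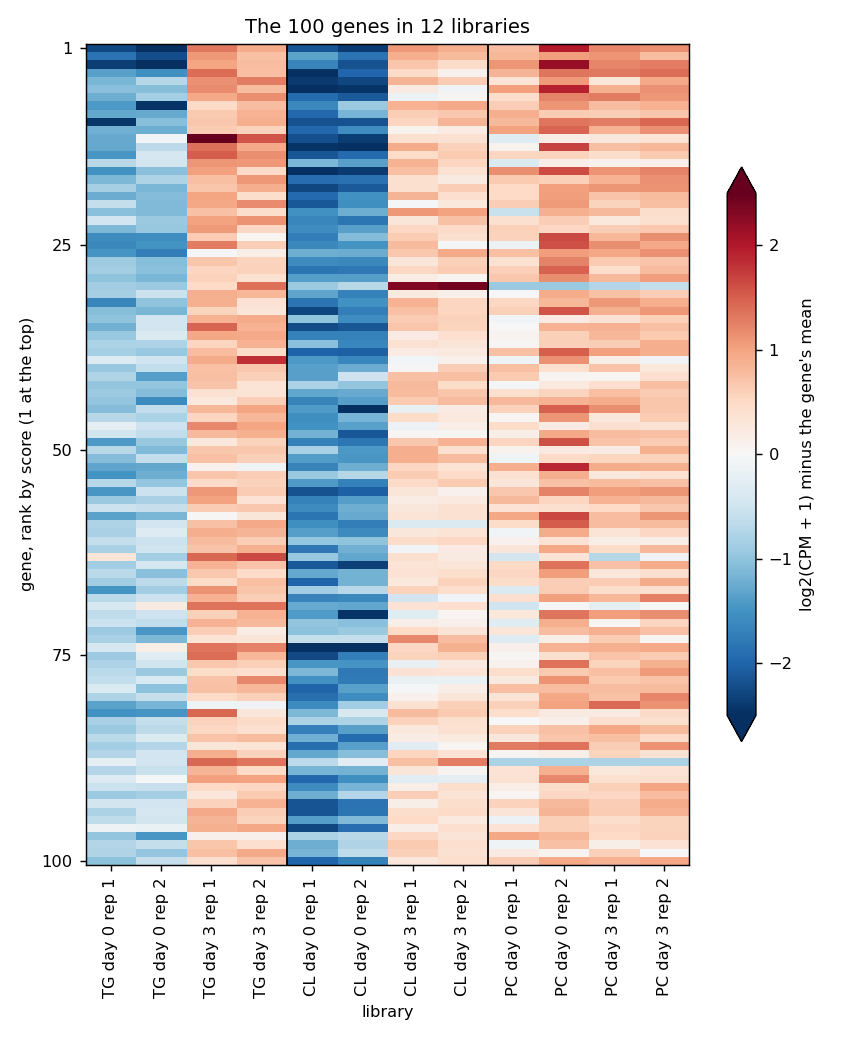
Each row is 1 of the 100 genes in order of score and each column 1 of the 12 libraries; colour is log2(CPM + 1) minus the gene's mean over the libraries. Fresh TG and CL are low, the 8 other libraries are high, and fresh PC replicate 2 is higher than replicate 1 for 88 genes; the rows of LOC111892296 (rank 30) and GeneID_111891094 (rank 88) stay low in PC.

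Levels averaged over day 0 and day 3 were compared between cultivars. The average is not free of the rule. Wherever day 3 levels are alike, a rise in one cultivar and none in the other leaves a difference in the average. The members' median differences from PC in L were -1.37 on day 0 and -0.02 on day 3 for TG, and -2.20 and -0.24 for CL. The counts and p-values against PC, here and for the genes named below, are therefore given as a description. All 100 members passed the filter on low counts, among 21757 tested genes. TG was lower than PC for 50 members and higher for 2 (edgeR quasi-likelihood test, adjusted p below 0.05 over all tested genes), where 8.44% of tested genes were lower and 12.1% were higher. The median log2 fold change of the members was -0.71, against 0.00 over all tested genes. CL was lower than PC for 80 members and higher for 2, where 17.6% and 19.1% of tested genes were called, or 36.7% in either direction. The median was -1.22, against -0.03 over all tested genes. These comparisons share the PC libraries. DESeq2, an alternative, called 14.2% of its tested genes as higher in TG than in PC. The number of members higher in TG was 4 with DESeq2, and 1 without TG day 3 replicate 1, PC day 0 replicate 1, PC day 3 replicate 1 or PC day 3 replicate 2. The number higher in CL was 1 without CL day 0 replicate 2.

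Among the members lower in TG than in PC, LOC111905764 had the largest log2 fold change, -4.27 (SE 0.90, adjusted p = 0.0106, edgeR quasi-likelihood test). It had 0 counts in fresh TG, 2.26 and 1.51 CPM in stored TG and 0.933 to 2.33 CPM in PC, so that fresh PC was at least 18.7-fold higher than fresh TG. The fitted value depends on the prior count and is no bound. LOC111876371, with 0 and 4 counts in fresh TG and 0 and 4 in fresh CL, had a log2 fold change from PC of -3.32 in TG (SE 0.75, adjusted p = 0.0130) and of -3.45 in CL (SE 0.75, adjusted p = 0.00592, edgeR). Without TG day 0 replicate 2 the first value was -5.34, and without CL day 0 replicate 2 the second was -5.65. For LOC111901154, described above, the value in TG was -2.76 (SE 0.33, adjusted p = 0.000454, edgeR). Its stored TG libraries, at 16.9 and 12.6 CPM, lay about those of stored PC, at 15.8 and 15.1 CPM. In each of these genes the fresh TG libraries, which entered the score, lay below every PC library. Their p-values are therefore not independent of the choice.

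For LOC111909222 the log2 fold change from PC to CL was -2.80 (SE 0.66, adjusted p = 0.00892, edgeR). This gene was at 0.226 and 0.228 CPM in fresh CL and 7.13 and 9.09 CPM in stored CL, against 8.81 to 14.1 CPM in PC. For LOC111921906 it was -2.55 (SE 0.22, adjusted p = 4.3e-05, edgeR), with 1.28 and 1.41 CPM fresh and 14.4 and 11.3 CPM stored against 23.3 to 48.98 CPM in PC. Stored CL stayed below every PC library for both, except that the highest stored CL library of LOC111909222 exceeded PC day 0 replicate 1. The exceptions in the other direction were few. GeneID_111891094 was higher than PC in TG (adjusted p = 0.000826) and in CL (adjusted p = 0.000492, edgeR), with the bounds given above. PC was at or near no counts for this gene and for LOC111892296. The rise that the rule required then left a higher average in TG or CL, so their p-values are a description only. LOC111883028 was higher in TG than in PC by 1.33 (SE 0.34, adjusted p = 0.0208, edgeR), and this call was lost without either stored TG library, either stored PC library, TG day 0 replicate 2 or PC day 0 replicate 1, with adjusted p up to 0.0853. LOC111892296 was higher in CL than in PC (adjusted p = 0.00496, edgeR), with an adjusted p of 0.9999 without CL day 0 replicate 2, when fresh CL is left with 0 counts.

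**Figure D5:**
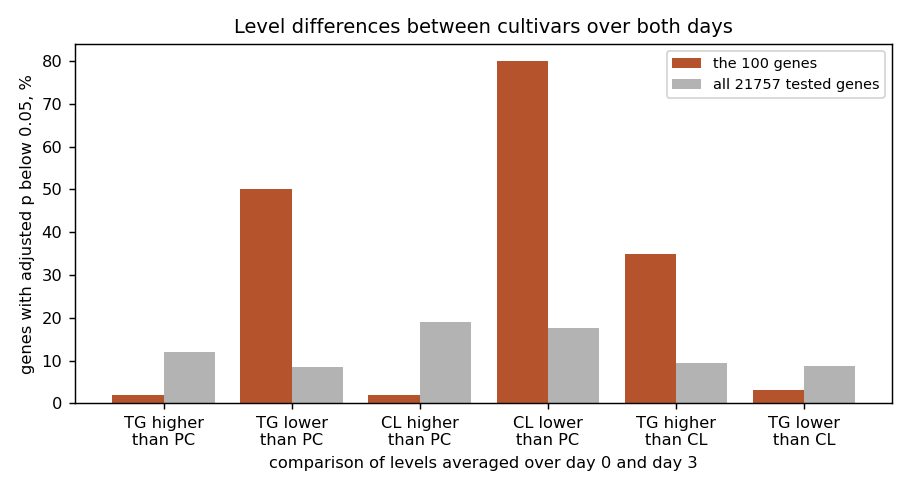
Share of genes with an adjusted p below 0.05 (edgeR) for levels averaged over day 0 and day 3, for the 100 genes and for all 21757 tested genes. Of the 100, 50 were lower in TG than in PC, 80 were lower in CL than in PC and 35 were higher in TG than in CL. The shares of the 100 are not free of the rule that chose them and are given as a description.

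The browning cultivars themselves were set against each other, which the rule treats alike. Their average is still not free of the choice, which is tied to PC being highest on day 0, as in 97 members. On library totals, TG was above CL on day 0 in 77.4% of tested genes with PC highest, against 83.5% of these members. The counts are therefore given as a description. On average over the days TG was higher than CL for 35 members and lower for 3 (edgeR quasi-likelihood test), where 9.41% and 8.76% of tested genes were called. The median log2 fold change was 0.48, against 0.04 over all tested genes. DESeq2, an alternative, called 12% of its tested genes as higher in TG than in CL and 12.1% as lower. The number higher in TG fell to 16 and 21 when CL day 3 replicate 1 or 2 was left out, and to 22 when the first stored TG library was. The number lower was 7 with DESeq2 and 1 without CL day 3 replicate 1.

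For LOC111883028 the log2 fold change from CL to TG was 2.69 (SE 0.39, adjusted p = 0.00178, edgeR). LOC111920883 differed by 2.68 (SE 0.58, adjusted p = 0.0116, edgeR), at 1.43 and 1.18 CPM in fresh TG and 4.92 and 10.01 CPM in stored TG, against 8 and 0 counts in fresh CL and 1.96 and 2.35 CPM in stored CL. Its value was 5.32 without CL day 0 replicate 1, which held those counts, and its adjusted p was 0.058 without CL day 3 replicate 1. LOC111907937 differed by 2.65 (SE 0.44, adjusted p = 0.00401, edgeR). In the other direction LOC111884916 had a value of -0.84 (SE 0.15, adjusted p = 0.00523, edgeR), with 9.87 and 11.4 CPM in stored TG, 16.5 and 20.3 CPM in stored CL and 17.5 to 23.4 CPM in PC. LOC111887879, at 29.86 and 29.91 CPM in stored TG and 39.4 and 34.4 CPM in stored CL, had a value of -0.60 (SE 0.13, adjusted p = 0.0113, edgeR). Its value was -0.40 without a scaling factor, and its adjusted p was 0.062 without CL day 3 replicate 1. LOC111880132, at 16.2 and 19.7 CPM in fresh TG and 24.3 and 28.4 CPM in fresh CL, had a value of -0.43 (SE 0.13, adjusted p = 0.0491, edgeR), a call lost under 11 of 18 alternatives, among them leaving out any 1 library other than the second fresh TG library and both fresh PC libraries.

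By mean level on day 0 the cultivars stood in the order PC above TG above CL for 81 members, and for 39.9% of tested genes. PC above CL above TG followed with 16 members, against 11.6% of tested genes, and CL above PC above TG held for 0, against 6.48%. In 67 members the first order held with no overlap between the libraries of any cultivars, against 18.4% of tested genes. With TMM-scaled totals the first order held for 74 members, and without overlap for 59, against 10.1% of tested genes. That PC was highest is tied to the rule, and so are these counts. Among the 97 members with PC highest, TG was above CL, the line of medium browning, in 83.5%, close to the 77.4% of tested genes with PC highest. With TMM-scaled totals these shares were 76.3% and 68.4%, so the order of TG and CL on day 0 is not read as a result about the members. On day 3 the orders were mixed, with 34 members as PC above TG above CL, 27 as TG above PC above CL and 18 as TG above CL above PC, against 25.6%, 19.7% and 13.5% of tested genes. Stored levels of TG and CL entered the score, so these day 3 counts are a description too. LOC111921906 is an example of the day 0 order, at 25.8 and 48.98 CPM in PC, 5.39 and 5.25 CPM in TG and 1.28 and 1.41 CPM in CL.

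The rise from day 0 to day 3 was then compared between TG and CL in a test of the difference itself. The rule required a rise in both, so the members were not free to differ fully and their counts are given as a description. The test called 0 members in either direction (edgeR quasi-likelihood test, adjusted p below 0.05), where 0.984% of tested genes were called, 0.418% with the larger and 0.565% with the smaller rise in TG. The lowest adjusted p of a member was 0.0527, for LOC111897710, whose rise was smaller in TG by 1.83 on the log2 scale. It stood at 6.59 and 6.39 CPM in fresh TG and 14.4 and 15.2 CPM in stored TG, against 0.717 and 1.23 CPM in fresh CL and 8.32 and 10.2 CPM in stored CL. Without adjustment 18 members had p below 0.05, 13 of them with the smaller rise in TG, against 16.6% of tested genes in either direction. DESeq2 called 5 members, all with the smaller rise in TG, where it called 3.62% of its tested genes in that direction and 3.48% in the other. The median log2 difference of the members was -0.34, against -0.04 over all tested genes. The count was 0 to 3 without any 1 library.

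By gene type, 96 members were listed as protein-coding and 2 as pseudogenes (LOC111907850 and LOC111898463), and 2 GeneIDs were not in the table. No member was a long non-coding RNA, a type that made up 4.76% of the 18439 placed genes that reached 1 CPM in any library. The 98 placed members lay on all 9 chromosomes. Chromosome 4 held 19.4% of them, against 13.1% of the placed genes, and chromosome 5 held 5.1%, against 13.7%. The members were scattered, and no adjacent genes were both members. The nearest pair was LOC111896254 and LOC111896257 on chromosome 1, with 5 genes between them. LOC111896257 was at 24.9 and 22.0 CPM in stored TG and 15.1 to 18.5 CPM in PC, whereas LOC111896254 was at 5.92 and 5.54 CPM in stored TG and 3.68 to 10.1 CPM in PC.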

How the data were processed

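RNA of leaf midribs was sequenced as paired ends in 18 samples, of which the 12 of day 0 and day 3 were used. The authors deposited counts per GeneID; the submitters' processing notes list STAR 2.4.0i, featureCounts, Trim Galore and FastQC, besides DESeq2 and R 3.6.1, without roles. The build, annotation and strand use were not given in the sources used here. Without known strand use, reads of overlapping antisense genes cannot be told apart, and reads shared by near-identical copies may be split. Between 68.4% and 74.6% of values of at least 100 were even, as when both mates are counted, so intervals and floors cover counting error only and may be too narrow. Rows of a repeated GeneID were summed; 2 members stood on more than 1 row. Day 2 values, deposited as whole numbers, were taken as a score and left out. Averaging a cultivar's day 0 and day 3 libraries of like number, then adding a constant and multiplying by a factor, gave them to within 1 count in 99.4% to 99.8% of rows with an average of at least 200.

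Levels are CPM on library totals with a pseudocount of 1 on the log2 scale. Tests used edgeR 4.0.16 in R 4.3.3 with filterByExpr by group, TMM scaling and a robust quasi-likelihood fit of the 6 group means to all 12 libraries, adjusted by the Benjamini-Hochberg method over 21757 genes at 0.05. Standard errors are the log2 fold change over the square root of F. DESeq2 1.42.0 was an alternative. Other scalings, no filter, a replicate block, fits of only the groups compared and leaving out each library were further alternatives. The fit was checked on simulated counts. In every group the replicates were further apart than sampling noise (chi-square over degrees of freedom of 11.9 or more on halved counts). GeneIDs were matched to the NCBI table of assembly Lsat_Salinas_v11 (40695 of 46150, and 98 of the 100 members), which was used only for symbols, gene types, chromosomes and neighbours. Named genes are the members of highest score (a selection of the 15), those at the limit of the list, the 3 called members of largest fold change per direction and comparison, the most abundant 5 and neighbours. The 28 gene lists, which rest on descriptions, could not be matched, and no member passed the rule on PC range; LOC111876371 was named there for the widest range, LOC111898851, LOC111889841, LOC111893342 and LOC111907350 were chosen after their place had been seen, and LOC111897710 for its p. The members, lists and tests were chosen with earlier results of these data known.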

Additional observations from a re-analysis of the deposited data

How the results depend on the processing

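The samples share replicate numbers, but the numbers did not pair them: the difference of replicate 1 and replicate 2 correlated between -0.086 and 0.067 over 15 pairs of groups. With the replicate block the members lower than PC were 50 in TG and 79 in CL, those higher were 2 in each, 33 were higher and 2 lower in TG than in CL, and the difference in rise called 0. Membership followed the rule's settings: 63 of the 100 were kept with a pseudocount of 0.1, 68 with 5, 53 with a PC change below 0.25, 44 below 1, 87 on TMM-scaled totals, and 67 to 94 without any 1 library. Counts of members with TG or CL below PC on average over the days kept within 1.5 times under all 18 alternatives, at 35 to 60 for TG and 74 to 90 for CL. Members higher in TG than in PC were 4 with DESeq2 and 1 to 3 without any 1 library, and those higher in CL than in PC were 1 to 2. TG was higher than CL for 16 to 40 members and lower for 1 to 4 without any 1 library, and lower for 7 with DESeq2. A smaller rise in TG than in CL was called for 2 members without a scaling factor, 2 with no filter on low counts, 5 with DESeq2, and 0 to 3 without any 1 library. CL lay above PC on day 3 for 23 members on TMM-scaled totals in place of 15. Shares called over all tested genes moved as well. DESeq2 called 14.2% of its tested genes as higher in TG than in PC, against 12.1% in the main test. It called 12.1% as lower in TG than in CL, against 8.76% in the main test. The counts of members are therefore given as a description. The cause of these shifts was not tested. The alternatives for the place of PC and for single-day levels were chosen after seeing the data.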
